A study of Mus musculus with 6 samples.

Results

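Glycolysis in the mouse hippocampus was followed through 10 genes, Hk1, Gpi1, Pfkl, Pfkm, Aldoa, Tpi1, Pgk1, Eno1, Eno2 and Ldha, taken as every probe set (a group of short oligonucleotides that together measure 1 transcript) whose only gene symbol in the platform annotation is one of these. This gave 9 probe sets for 8 genes, out of 8251 genes so named and 12488 probe sets on the array, 66 of them controls. Aldoa had 2 probe sets, the other 7 genes had 1 each, and no probe set under the symbols Gpi1 or Eno1 was analysed here. The data are 6 arrays, each of total RNA from 1 hippocampus sample, in a study titled for mice overexpressing HuD, the product of Elavl4 and a neuronal protein that binds mRNA. No label says which sample, if any, carries the transgene, so the samples stand in no group and keep their title numbers, and no value here is a transgene effect. The age, strain and sex of the mice, any pooling of animals, and the promoter of the transgene are likewise not stated in the labels.

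Glycolysis splits glucose into pyruvate in the cytosol and yields ATP and NADH. Hexokinase traps glucose in the cell, phosphofructokinase commits it to the pathway, aldolase and triose phosphate isomerase make the 3-carbon sugars, and glyceraldehyde phosphate dehydrogenase, phosphoglycerate kinase, mutase, enolase and pyruvate kinase carry these to pyruvate, which lactate dehydrogenase exchanges with lactate. The brain runs mainly on blood glucose, and several steps have isoenzymes that differ between neurons, glia and muscle. Many of these genes are known targets of the hypoxia-inducible factor, which binds DNA at the cores ACGTG and GCGTG.

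Hk1, the member with the widest differences between samples, and Ldha, which like Hk1 was highest in sample 1, are represented here by the 250 bases before their RefSeq starts (GRCm38.p6), 5′ to 3′ on the strand of the gene, with each ACGTG or GCGTG core on either strand in capitals. RefSeq lists 2 starts for each gene. The Hk1 windows are chr10:62379909-62380158 and chr10:62340422-62340671 on the minus strand, and the Ldha window, before the first of its starts, is chr7:46845554-46845803 on the plus strand.
Hk1, start 1: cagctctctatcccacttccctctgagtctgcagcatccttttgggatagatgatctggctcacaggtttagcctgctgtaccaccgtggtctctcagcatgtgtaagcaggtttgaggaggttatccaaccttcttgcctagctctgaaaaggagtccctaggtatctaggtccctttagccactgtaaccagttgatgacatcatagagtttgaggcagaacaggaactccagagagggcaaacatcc
Hk1, start 2: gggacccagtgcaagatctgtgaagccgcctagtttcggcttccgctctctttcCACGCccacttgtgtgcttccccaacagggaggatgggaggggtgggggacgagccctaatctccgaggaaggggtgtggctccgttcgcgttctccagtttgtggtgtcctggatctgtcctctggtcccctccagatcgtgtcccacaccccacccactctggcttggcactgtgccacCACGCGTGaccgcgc
Ldha, start 1: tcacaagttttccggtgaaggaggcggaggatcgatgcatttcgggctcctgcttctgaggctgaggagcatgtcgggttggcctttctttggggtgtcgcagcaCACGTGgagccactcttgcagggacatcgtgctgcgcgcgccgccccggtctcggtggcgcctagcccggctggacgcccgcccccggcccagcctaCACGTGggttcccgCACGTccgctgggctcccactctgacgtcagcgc
The first Hk1 window held 0 cores and the second 3, all GCGTG, of which 2 overlap in one run of capitals. The Ldha window shown held 5 matches, all ACGTG, at 3 places, since the palindrome CACGTG is read on both strands. The window before the other Ldha start, not shown, held 1 core, a GCGTG. Over the 8 genes, 10 of 15 windows (66.7%) held at least 1 core, against 38.6% of 32841 such windows of all genes (16.6% with ACGTG and 28.2% with GCGTG). Windows of 1 gene can overlap, as those of Aldoa and Pfkm do. The windows of Tpi1 and Eno2 held 0 cores. These letters describe the windows only, and no binding was measured.

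The enzymes as a set were bright and steady, and Hk1 stood apart from the other members. To compare samples, the signals of an array were divided by the array median (the median of its non-control probe sets) and put on the log2 scale, where the array median is 0. The range is the highest minus the lowest of the 6 log2 levels. All 9 probe sets lay over 4 log2 units above the array median, a class of 452 among the 6207 probe sets above that median. A range past 1.5-fold was reached by 1 of the 9 (Hk1), against 25.1% of the 6207 and 7.08% of the 452. A range past 2-fold was reached by 0 of the 9, against 5.06% and 1.11%. The median range of the 9 was 0.27 on the log2 scale (1.20-fold), against 0.41 (1.33-fold) for the 6207 and 0.28 (1.22-fold) for the 452. The members thus differed between samples about as much as other bright probe sets did, and 5 of the 9 lay below the median range of that class. Bright probe sets in general had small ranges: the median fell by class from 0.54 for those within 1 log2 unit of the array median to 0.28 for those over 4 units above it.

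**Figure D1:**
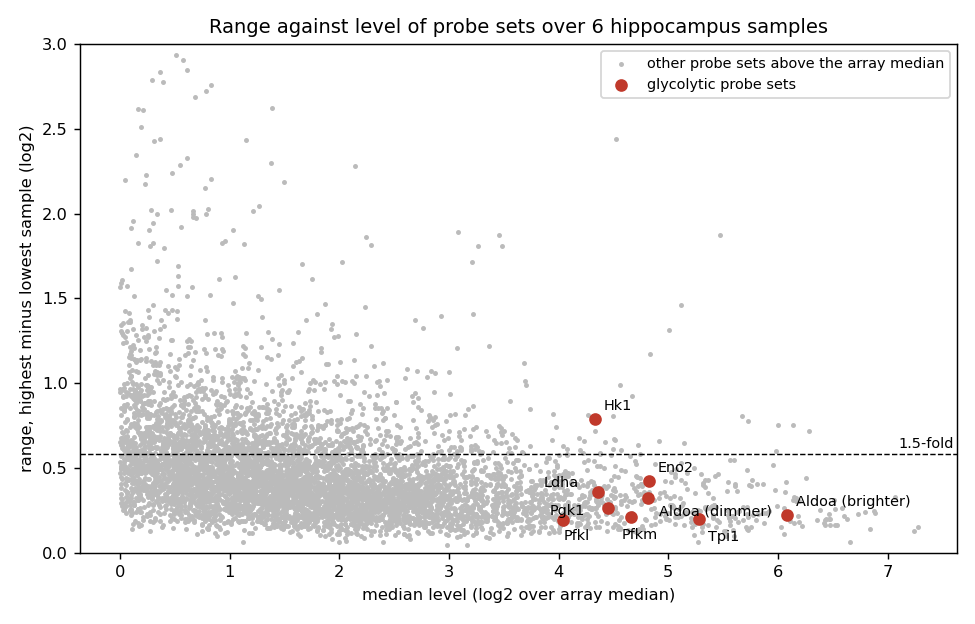
Each point is a probe set above the array median, with its median level over the 6 samples on the x axis (log2 over the array median) and its range, the highest minus the lowest sample, on the y axis (log2). The 9 glycolytic probe sets are red, the dashed line marks 1.5-fold, and 5 probe sets with a range over 3 lie outside the axis. Hk1, at 0.79, is the only red point above the line, and the other 8 lie between 0.19 (Pfkl) and 0.42 (Eno2).

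Hk1 encodes hexokinase I, the main hexokinase of brain, which sits on the outer membrane of mitochondria. Its deposited signal was 1747, 1414, 1284, 1194, 1017 and 1047 in samples 1 to 6. Sample 1 stood highest and samples 5 and 6 lowest and close to each other, with the other samples spread between. After scaling the highest sample was 1.73 times the lowest, a range of 0.79 on the log2 scale. Of the 452 bright probe sets, 10 had a wider range. Sample 1 decided whether Hk1 passed 1.5-fold: without it the range was 0.52 (1.43-fold), whereas without any other sample it was at least 1.67-fold. The order of the 6 samples was the same with quantile normalization (1.69-fold) and with the deposited values as they are (1.72-fold). Hk1 was measured by 1 probe set, so no second reading of its transcript was at hand, and there is no replicate check on a difference between single samples.

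Hk2, the inducible hexokinase of muscle and fat, had 2 probe sets, both with a median under the array median and thus not shown to be above background. The glucose transporter Slc2a1 (GLUT1), which carries glucose across brain capillaries and into glia, ran the other way from Hk1. Its deposited signal was 113.7, 125.7, 135.3, 148.8, 178.7 and 156.0 in samples 1 to 6. Sample 1 was thus lowest and sample 5 highest, with a range of 1.56-fold after scaling. The order of the 6 samples was the exact reverse of that of Hk1, also with quantile normalization and in the deposited values. Of the other 6206 probe sets above the array median, 7 (0.113%) had that reverse order and 11 (0.177%) the same order as Hk1. With quantile normalization 13 (0.209%) had the reverse order and 9 (0.145%) the same, and in the deposited values 11 (0.178%) and 13 (0.211%) of 6175. This pairing was picked after the values were seen. Slc2a3 (GLUT3), the transporter of neurons, had 2 probe sets with ranges of 1.32-fold and 1.24-fold, highest in different samples.

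Other measures also differed between samples 1 and 5. The summed level of the oligodendrocyte markers above the array median (11 of 13 probe sets, 7 of 7 genes on the array), in multiples of the array median, was 106.6, 114.8, 150.1, 136.4, 152.8 and 143.0 in samples 1 to 6. It was lowest in sample 1, where Hk1 was highest. There 7 of the 11 probe sets had their lowest level, against 21.8% of the 6207 above the array median, and 1 (of Mbp) its highest, against 17.3%. The 7 include repeat readings of Mobp. The summed levels of the astrocyte and microglia markers were also lowest in sample 1, at 79.1 and 17.6, against 81.1 to 85.3 and 19.4 to 19.9 in the other samples. The astrocyte list was mixed. Of its 8 probe sets 3 (both of Gfap and 1 of Glul) were lowest in sample 1, and the other Glul probe set was highest there. Both Aqp4 probe sets and Slc1a2 were lowest in sample 3. Aldoc carried most of the astrocyte sum, with a deposited signal of 2758 of 4967 in sample 1. Of the 4 microglia probe sets 3 were lowest in sample 1. The summed level of the meninges and fibroblast markers (7 of 9 probe sets, 5 of 5 genes) was 204.2, 217.1, 107.8, 109.0, 88.5 and 173.7, highest in samples 1 and 2. Ptgds alone carried most of that sum, with deposited signals of 4057, 3264 and 3645 in sample 1 against 12825 for the list. Dcn and Slc6a13 were highest in sample 2. Igf2 was highest in sample 6, and Col1a2 was lowest in sample 1, each in its probe set above the array median. The summed level of the neuronal markers (7 of 8 probe sets, 6 of 6 genes) moved less, from 215.8 in sample 4 to 251.9 in sample 2. That of the hippocampal neuron markers (4 of 5 probe sets, 3 of 4 genes) moved more, at 22.5, 34.6, 20.1, 36.8, 43.0 and 29.4, low in samples 1 and 3 and highest in sample 5, where Hk1 was lowest. Camk2a, a kinase of excitatory neurons, led this list, with ranges of 3.71-fold and 3.51-fold in its 2 probe sets. Both were lowest in sample 3 and highest in sample 5, as was Wfs1. Neurod6 went the other way in sample 3, where it was highest (403.4), and it was lowest in sample 1 (244.4). The 3′ to 5′ signal ratios of the beta-actin and Gapdh controls, a sign of RNA integrity, were highest in sample 1 (1.27 and 0.86). They were lowest in sample 2 (1.11 and 0.79). The controls for transferrin receptor and pyruvate carboxylase had their highest ratios in sample 3 (3.47 and 3.56). The transferrin receptor ratio was lowest in sample 1 (2.54), so the controls did not rank the samples alike. The part of these differences in the Hk1 values was not tested. In a tissue sample, fewer cells of a type and less RNA per cell cannot be told apart.

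**Figure D2:**
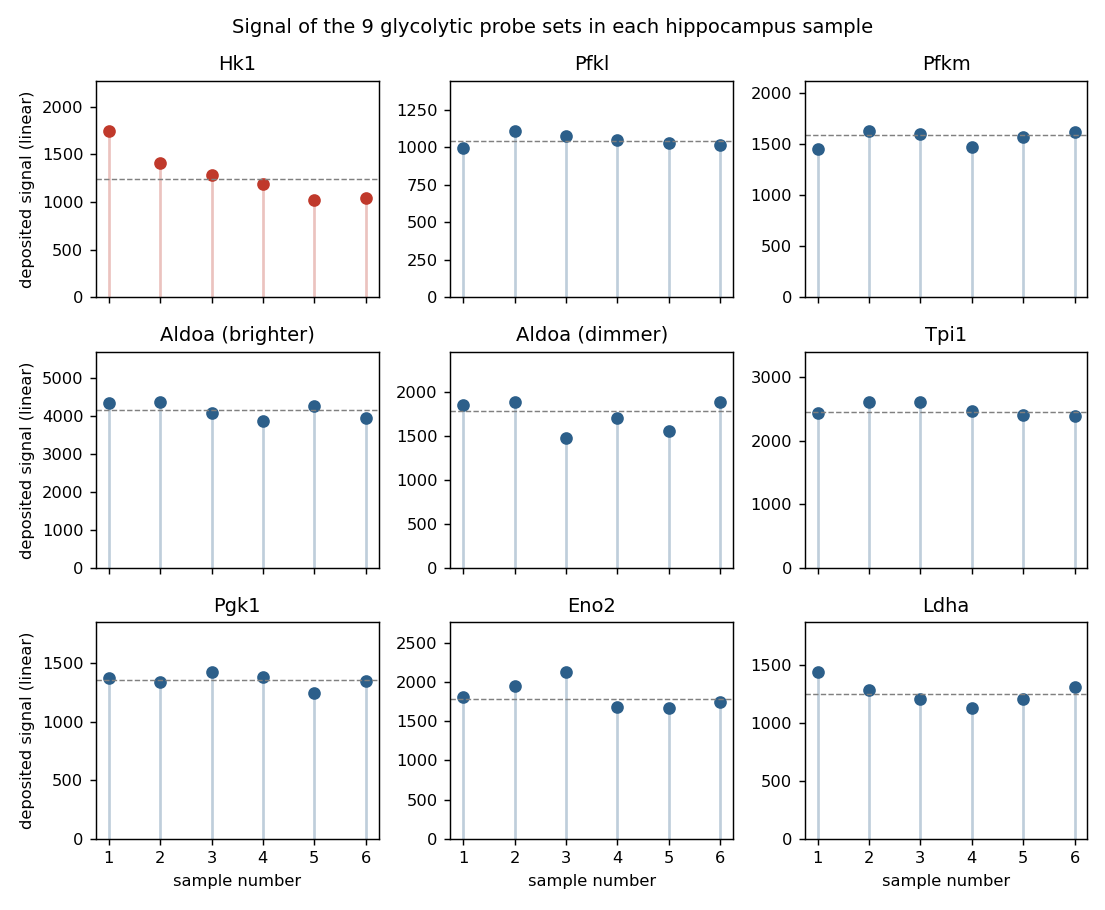
Each panel shows 1 glycolytic probe set, with the sample number on the x axis and the deposited linear signal on the y axis, which starts at 0. Points are single samples and the dashed line is the median of the 6. Hk1, in red, goes from 1747 in sample 1 to 1017 in sample 5, whereas the points of the other probe sets keep near their dashed lines.

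Pfkl and Pfkm encode the liver-type and muscle-type subunits of phosphofructokinase, which form mixed tetramers in brain, and both were among the steadiest members. The Pfkl signal was 992.1, 1109, 1073, 1050, 1032 and 1013 in samples 1 to 6. The Pfkm signal was 1447, 1627, 1598, 1470, 1568 and 1613 in the same samples. Both were lowest in sample 1, also under the other 2 scalings, and their ranges were 1.14-fold and 1.16-fold. The platelet-type subunit Pfkp, also made in brain, differed from them in sample 1, where both of its probe sets were highest (326.6 and 317.4, with ranges of 1.32-fold and 1.25-fold). Set against its own median, Pfkl minus the Pfkp probe set with the wider range was -0.26 on the log2 scale in sample 1 and lay between -0.05 and 0.20 in the other samples. With the other Pfkp probe set it was -0.26 in sample 1 and between -0.13 and 0.19 in the others. Pfkm minus Pfkp was -0.34 and -0.33 in sample 1 with these probe sets, and lay between -0.06 and 0.12 and between -0.07 and 0.15 in the others. Pfkl minus Pfkm kept between -0.05 and 0.13 in all 6 samples.

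Aldoa, aldolase A, which cleaves fructose bisphosphate and is abundant in muscle and brain, was read by a brighter and a dimmer probe set, both with names that mark probes shared within a gene family. The brighter one had signals of 4340, 4379, 4083, 3866, 4253 and 3947 in samples 1 to 6, a range of 1.17-fold. The dimmer one had 1847, 1887, 1471, 1705, 1553 and 1887, a range of 1.25-fold. They shared sample 2 as the highest but not the lowest, which was sample 4 for the brighter and sample 3 for the dimmer. Over the 6 samples Pearson's r between them was 0.10 (exact permutation test over 720 pairings, two-sided, p = 0.81) and Spearman's rho 0.31 (exact permutation p = 0.56). This was the only pair of probe sets tested, so adjusted values are the same. Without samples 4 and 6, the farthest from the median of the brighter probe set, r was 0.90 over 4 samples. With quantile normalization the farthest samples were 1 and 4, and r was 0.15 without them. Each p-value is the share of the 720 pairings with a correlation at least as strong as that observed. Nothing in the labels says that the samples are separate animals, so these p-values do not reach beyond these samples. Whether the probe sets follow the same differences in Aldoa could not be settled with 6 samples. Aldoc, aldolase C, the isoenzyme of astrocytes and Purkinje cells, had its lowest signal, 2593, in sample 6 and its highest, 2888, in sample 3, a range of 1.17-fold after scaling.

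Tpi1, triose phosphate isomerase, which interconverts the products of aldolase, was as steady. Its signal was 2438, 2609, 2609, 2462, 2405 and 2383 in samples 1 to 6, with samples 2 and 3 level and highest, and its range was 1.15-fold. With quantile normalization the range was 1.08-fold. Gapdh, the next enzyme, is measured under its own symbol by the array's control probe sets. Those for its 5′, middle and 3′ parts ranged 1.14-fold, 1.14-fold and 1.10-fold, with samples 2, 3 and 1 the highest after scaling. In the deposited signal the middle part was highest in sample 1, as the 3′ part was.

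Pgk1, phosphoglycerate kinase, an X-linked gene whose enzyme makes the first ATP of the pathway, had signals of 1376, 1340, 1424, 1382, 1247 and 1348 in samples 1 to 6. Sample 5 lay below the others, which were close together, and the range was 1.20-fold. Without sample 5 it fell from 0.27 to 0.15 on the log2 scale, and likewise to 0.15 without sample 3. Pgam1, the phosphoglycerate mutase of brain, was also lowest in sample 5 (1377, against 1639 to 1748 in the other samples), with a range of 1.32-fold. The testis isoenzyme Pgk2 and the muscle isoenzyme Pgam2 lay under the array median.

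Eno2, neuron-specific enolase and a common marker of mature neurons, was the widest member after Hk1. Samples 1 to 6 had signals of 1812, 1946, 2120, 1674, 1665 and 1743. Samples 4, 5 and 6 lay below samples 1, 2 and 3, but sample 1 was closer to sample 6 than to sample 2. Sample 3 was highest. The range was 1.34-fold (0.42 on the log2 scale). It was 0.27 with quantile normalization, where the lowest sample became sample 4, and 0.27 without sample 3. The general neuronal markers did not share one pattern. Of their 7 probe sets above the array median, 3 (Syp, Nefl and Thy1) were highest in sample 3 after scaling and 2 (Syp and Thy1) lowest in sample 5, whereas Syt1 was highest in sample 5 and lowest in sample 1, and Snap25 and both such probe sets of Stmn2 were lowest in sample 4. Eno3, the enolase of muscle, was near the array median and ranged 1.36-fold. Of the skeletal muscle markers Acta1, Ckm, Myh4 and Tnnt3, 1 of 4 (Acta1) had a median above the array median, at 0.06 on the log2 scale.

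Pyruvate kinase M (Pkm), the enzyme that forms pyruvate, had 2 probe sets with ranges of 1.18-fold and 1.15-fold, both highest in sample 3 after scaling. In the deposited signal both were highest in sample 1. Pklr, the liver and red cell form, had 1 probe set above the array median, with a signal of 18.0 in sample 2 against 61.3 to 134.2 in the others. Its range was 2.12-fold once values below the array median were raised to it.

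Ldha, the lactate dehydrogenase subunit that favours lactate formation, had signals of 1435, 1283, 1201, 1129, 1209 and 1313 in samples 1 to 6. Sample 1 was highest and sample 4 lowest under all 3 scalings, and the range was 1.28-fold (0.36 on the log2 scale, or 0.23 without sample 1). Ldhb, the subunit that favours pyruvate formation, ranged 1.46-fold in its brighter probe set, from 859.7 in sample 4 to 1212 in sample 2. A second Ldhb probe set was under the array median. Each set against its own median, Ldha minus Ldhb was -0.31 on the log2 scale in sample 2 and lay between -0.10 and 0.08 in the other samples. Both subunits were thus lowest in sample 4, and they parted in sample 2.

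The 8 genes were also set side by side. The score of a sample is the median, over the 8 genes, of the log2 deviation from each gene's own median, with the brighter probe set for Aldoa. It was 0.02, 0.10, 0.11, -0.09, -0.06 and -0.03 in samples 1 to 6, and without Hk1 it was 0.01, 0.07, 0.12, -0.10, -0.03 and -0.03. The genes above their own median numbered 5, 8, 7, 2, 0 and 2 of 8 in samples 1 to 6. Bright probe sets of all kinds shared part of this pattern: the median deviation of the 452 was 0.01, 0.04, 0.08, -0.04, -0.04 and -0.02 in the same samples, and the genes above that median numbered 4, 6, 5, 3, 4 and 2 of 8. No test of whether the genes move together was made. In sample 1 the genes were split, from -0.13 for Pfkm to 0.47 for Hk1. Sample 3 was the highest for 45.6% of the 452, and for 4 of the 9 members. Sample 1 was highest for 2 of the 9 (Hk1 and Ldha) against 15.9% of the 452, and lowest for 2 (Pfkl and Pfkm) against 21.5%. Sample 5 was lowest for 3 of the 9 (Hk1, Pgk1 and Eno2) against 27.9%, and sample 4 for 2 (Ldha and the brighter Aldoa) against 28.1%. Sample 2 was highest for 3 of the 9 (Pfkl and both Aldoa probe sets) against 21.9%, and lowest for 0 against 4.2%. Sample 3 was lowest for 1 (5.75% of the 452) and sample 6 for 1 (12.6%), and samples 4, 5 and 6 were highest for 0 (7.08%, 4.87% and 4.65%). With quantile normalization the scores were 0.01, 0.04, 0.01, -0.05, -0.01 and -0.04, so that sample 3 no longer stood out.

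**Figure D3:**
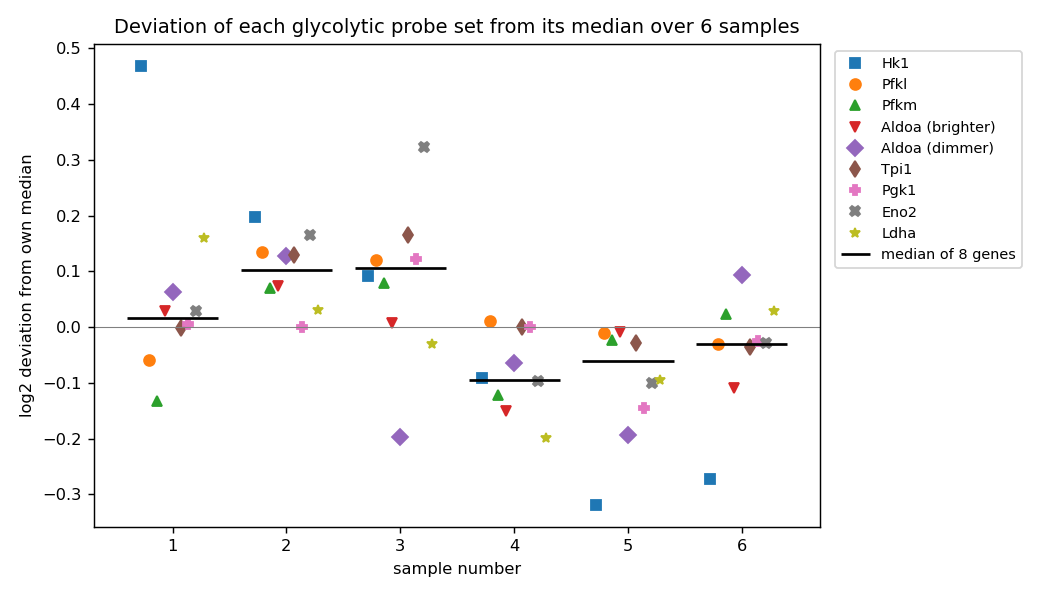
The y axis gives the log2 deviation of each glycolytic probe set from its own median over the 6 samples, and the x axis the sample number. Symbols are probe sets, shifted sideways for sight, and black bars are the median of the 8 genes. Hk1 goes from 0.47 in sample 1 to -0.32 in sample 5, whereas the bars keep between -0.09 and 0.11.

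Lists around the pathway had median ranges on either side of the members' 0.27. Of 16 further glycolytic genes, 12 were on the array and 8 of them above its median, with 10 probe sets, a median range of 0.40 and 1 past 1.5-fold (Pklr), against 25.1% of all probe sets above the array median. The pyruvate dehydrogenase complex and its kinases had 7 such probe sets, a median range of 0.32 and 2 past 1.5-fold. Both were close to that limit (Pdk4, an inhibitory kinase, at 1.52-fold and Dlat, the acetyltransferase core, at 1.51-fold). The pentose phosphate pathway had 6, a median range of 0.18 and 1 past 1.5-fold (Tkt, transketolase, at 1.51-fold, lowest in sample 6 with 356.8), followed by Taldo1, transaldolase, at 1.22-fold. Glycogen enzymes had 6, a median range of 0.33 and 0 past 1.5-fold, led by Ppp1r3c, which targets a phosphatase to glycogen, at 1.43-fold and Ugp2, which makes UDP-glucose, at 1.38-fold. The shuttles that carry reducing equivalents into mitochondria had 6, a median range of 0.31 and 1 past 1.5-fold (Mdh1, cytosolic malate dehydrogenase, at 1.54-fold), followed by Gpd2, the mitochondrial glycerol phosphate dehydrogenase, at 1.38-fold. Each of these 4 lists thus had a median range under the 0.41 of all probe sets above the array median, as the glycolytic enzymes did, and no test was made between them. Of the glucose and lactate transporters, 4 probe sets of 3 genes were above the array median, 1 of them past 1.5-fold (Slc2a1).

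Wider ranges fell on dim probe sets. Pfkfb3, the enzyme that makes the main activator of phosphofructokinase, was near the array median, with a signal of 57.1 in sample 2 and 125.2 in sample 3. It ranged 2.25-fold, or 2.09-fold once values below the array median were raised to it. Of the gluconeogenic genes 2 were above the array median, Pck2, the mitochondrial phosphoenolpyruvate carboxykinase, at 1.93-fold and G6pc3, the widely expressed glucose phosphatase, at 1.23-fold.

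Hypoxia-induced genes outside glycolysis formed a further list. Of 17 genes 13 were on the array and 11 above its median, with 15 probe sets and a median range of 0.38. Past 1.5-fold were 3 of the 15, against 25.1% of all probe sets above the array median. Vegfa, the vascular growth factor, ranged 1.90-fold, or 1.31-fold once values below the array median were raised to it. The others were for subunits of the collagen prolyl hydroxylase, P4ha1 (1.55-fold) and the dimmer probe set of P4ha2 (1.56-fold, or 1.26-fold when so raised). The brighter P4ha2 probe set ranged 1.35-fold and was highest in sample 5, where the dimmer one was lowest. In sample 1, 6 of the 15 had their lowest level, against 21.8% of the 6207 probe sets above the array median, and 1 its highest, against 17.3%. The 6 were both probe sets of Ndrg1 and of Ero1a, that of Egln1 and 1 of Hif1a, and the 1 highest was the other Hif1a probe set. The list's score lay between -0.02 and 0.01 in all 6 samples.

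**Figure D4:**
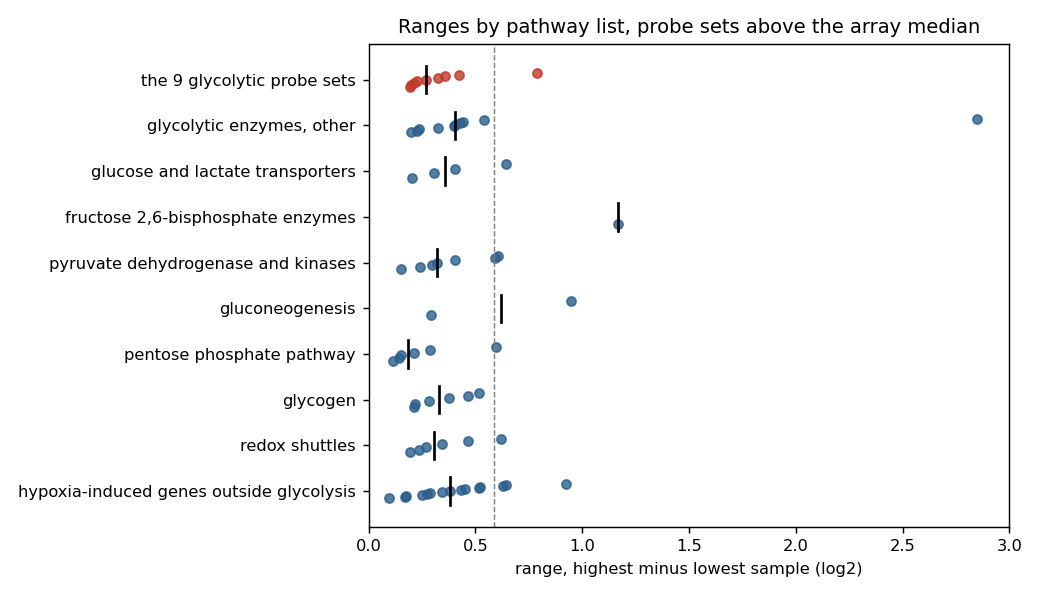
Each point is a probe set above the array median, with its range (highest minus lowest sample, log2) on the x axis and its list on the y axis, the glycolytic members in red. Black bars are list medians and the dashed line marks 1.5-fold. The members' median is 0.27, that of the other glycolytic enzymes 0.40 and that of the pentose phosphate pathway 0.18, and the point at 2.85 is Pklr.

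Of the 8 probe sets of the 6 general neuronal genes, 7 lay above the array median, against 6207 of the 12422 non-control probe sets. Each of the 6 genes had at least 1 such probe set. These genes are not particular to the hippocampus, so their count does not test the tissue label. Of the hippocampal neuron markers Neurod6, Wfs1 and Camk2a were above the array median while Prox1, a marker of dentate granule cells, was under it. Choroid plexus markers differed most between samples, with a summed level, over the 2 of 7 probe sets above the array median, of 0.7 in sample 1 and 31.2 in sample 6, in multiples of the array median. That sum was 0.7, 1.4, 4.4, 25.7, 9.6 and 31.2 in samples 1 to 6. It was mostly Ttr (deposited signal 1798 of 1960 in sample 6), and in sample 1 Ttr and Folr1 each lay under the array median. Against its own median, Hk1 was -0.09 in sample 4, -0.32 in sample 5 and -0.27 in sample 6 on the log2 scale. Ldha was -0.20 in sample 4, where it was lowest, -0.09 in sample 5 and 0.03 in sample 6. The part of choroid plexus in the members' values was not tested.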

How the data were processed

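Each of the 6 samples was measured on 1 oligonucleotide array. The authors deposited 1 table of linear signal intensity. The labels do not say how the signals were scanned, summarised and scaled. All 6 arrays had the same trimmed mean (150.1, over values from the 2nd to the 98th percentile), so the deposited values already stood on a common scale. Array medians over non-control probe sets ran from 59.9 to 63.3. Detection calls were not used here, so a value under the array median is not shown to be above background. The small number of arrays limits how precise any value is.

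Names come from the platform annotation, where it gives 1 symbol, and all 9 members matched the RefSeq gene table (GRCm38.p6) by gene identifier and symbol. Signals were divided by the array median, raised to a floor of 0.2 times that median, which 0 of the members' values reached, and put on the log2 scale (Python 3.11.15, pandas 2.3.3, numpy 2.4.6). No sample has a group, so no comparison between groups, mean or SD was made. The members and lists were chosen with earlier results of these data known. Every member is named, with each isoenzyme of a step and the enzymes between, and of each other list the 2 widest probe sets above the array median. For the hypoxia list every gene past 1.5-fold is named. Markers and orders of samples were named beside the results they bear on. The range calculation was checked on simulated arrays with known differences and less noise than these data, so that check does not show how precise the ranges here are. Alternatives were the scaling, the floor, the filter on low values, shared probe sets, the mean of probe sets, and each sample left out.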

Additional observations from a re-analysis of the deposited data

How the results depend on the processing

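The median range of the 9 probe sets, 0.27 on the log2 scale, was 0.18 with quantile normalization and 0.19 with the deposited values not divided by the array medians, and lay between 0.23 and 0.27 when each sample was left out in turn. The count of members past 1.5-fold was 1 under every scaling, floor and filter tried and without the shared Aldoa probe sets, and 0 or 1 with a sample left out, 0 only without sample 1. The spread of the sample scores, from lowest to highest, was 0.20, and it was 0.094 with quantile normalization, 0.15 without that division, 0.22 without the shared probe sets, and 0.16 to 0.22 with a sample left out. Of 90 recomputed ranges of single members, 10 moved by over 1.5 times. With quantile normalization these were Eno2 (0.27), the brighter Aldoa probe set (0.14), Pgk1 (0.14) and Tpi1 (0.11), and without the division Tpi1 (0.13). The others were Hk1 and Ldha without sample 1, Eno2 without sample 3, and Pgk1 without sample 3 or 5. The correlation of the Aldoa probe sets was 0.24 with quantile normalization (exact permutation p = 0.62). No paired analysis was possible because no sample has a group. No member had a sample far enough from the others to pass Dixon's limit for an outlier. The largest gap was 0.44 of the range, for Pgk1 in sample 5.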
